A study of Mus musculus with 24 samples.

Results

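Astrocytes cover brain blood vessels with endfeet and clear the potassium and bicarbonate that active neurons leave in the extracellular space. The genes described here encode 8 proteins of this machinery, namely the water channel *Aqp4*, the potassium channels *Kcnj10* and *Kcnj16*, the sodium pump subunit *Atp1b2*, the bicarbonate transporter *Slc4a4*, the laminin receptor *Dag1* and the connexins *Gja1* and *Gjb6*. Members were all probes other than control spots whose accession in the array design belongs to one of these symbols. The rule found 16 probes for the 8 genes, out of 56605 unique probes on the array, of which 34566 could be given a gene name and together covered 23787 genes. There was 1 probe for *Kcnj10*, *Kcnj16* and *Dag1*, there were several for the other 5 genes, and the brightest probe of each gene (highest mean signal intensity) represents it unless another probe is named.

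Aquaporin 4 is concentrated in the endfoot membrane facing the vessel, where it is anchored through syntrophin and the dystrophin complex to dystroglycan, the product of *Dag1*, which binds laminin of the basement membrane. Kir4.1, encoded by *Kcnj10*, is the main inwardly rectifying potassium channel of astrocytes and can pair with Kir5.1, encoded by *Kcnj16*. The connexins encoded by *Gja1* and *Gjb6* form gap junctions through which potassium and metabolites spread in the astrocyte network.

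The animals were 48 male Swiss-Webster mice, 12 weeks of age, and the tissue was the hippocampus of each mouse. Treated mice drank 100 µg/mL corticosterone with 0.45% hydroxypropyl-β-cyclodextrin during a dark phase of 12 h, whereas control mice drank the cyclodextrin vehicle. RNA was taken during the first, the fifth or the ninth hour of the following light phase, the resting period of mice, from 8 control and 8 treated mice per hour. By the authors' account, controls were brothers of treated mice, and every group drew on several litters. Litter was not part of the model, so mice of 1 litter were treated as independent. Each of 24 two-color arrays held 1 control mouse labelled with Cy3 and 1 treated mouse labelled with Cy5, with no dye swap, so that at any probe a constant difference between the dyes and an effect of treatment cannot be told apart. Such a dye difference cancels in comparisons between hours.

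Arrays lay on 3 slides with 8 arrays each. The share of spots that stood well above background ranged from 60.8% to 67.2% for Cy3 and from 64.0% to 73.5% for Cy5. On 2 arrays the signals agreed less with the other arrays of their group than the remaining ones did, as judged after the data were seen. They were replicate 7 of the fifth hour, with a mean correlation of 0.979 with the other 7 arrays in both channels against a group median of 0.991 in each, and replicate 8 of the first hour, with 0.989 in the treated channel against a median of 0.993. Of the 16 member probes, 15 were well above background in all 48 channels. The remaining one, *Aqp4* probe A_55_P2742033, was well above background in 0 channels, so that no fold change is given for it.

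Corticosterone-treated and control mice displayed significant differences at 8 of the 16 probes during the first hour (3 higher and 5 lower in treated mice, against 8.84% and 8.67% of all probes), at 12 during the fifth hour (3 higher and 9 lower, against 8.62% and 9.47%) and at 9 during the ninth hour (1 higher and 8 lower, against 7.01% and 6.97%), at a Benjamini–Hochberg adjusted p below 0.05 in limma's separate-channel test. In either direction 17.5%, 18.1% and 14% of all probes on the array passed at these hours. On the array 24572 probes had a mean intensity below 50, whereas 15 of the 16 member probes had 50 or more. The part of this difference in the counts was not tested. One of the 9 calls at the ninth hour belonged to the *Aqp4* probe that was not above background. With slide 1 left out, 7 probes passed at the fifth hour and 4 at the ninth. Without the 2 arrays that stood apart, 8, 11 and 9 probes passed, and the 11 then included the *Aqp4* probe that was not above background (adjusted p = 0.0478) in place of *Kcnj16* and *Aqp4* A_55_P2742038. The median log2 difference of the 16 probes was −0.07, −0.21 and −0.22, and that of all probes on the array was −0.00092, 0.00096 and 0.00063.

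By their brightest probe 5 of the 8 genes passed during the first hour, 6 during the fifth and 4 during the ninth, against 20.7%, 20.8% and 15.6% of all named genes. The direction was not shared. *Aqp4* and *Kcnj10* were lower and *Atp1b2* was higher in treated mice at all hours, *Gjb6* was higher during the first and the fifth hours, and *Dag1* did not pass at any hour. Of the 16 probes, 5 passed at all 3 hours with 1 direction, against 5.91% of all probes. The animals of both groups did not overlap at 4, 4 and 3 of the member probes during the first, the fifth and the ninth hours, whereas the share over all probes was 1.58%, 1.04% and 1.64%. In this bulk tissue, fewer cells of a type and less RNA per cell cannot be told apart.

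**Figure D1:**
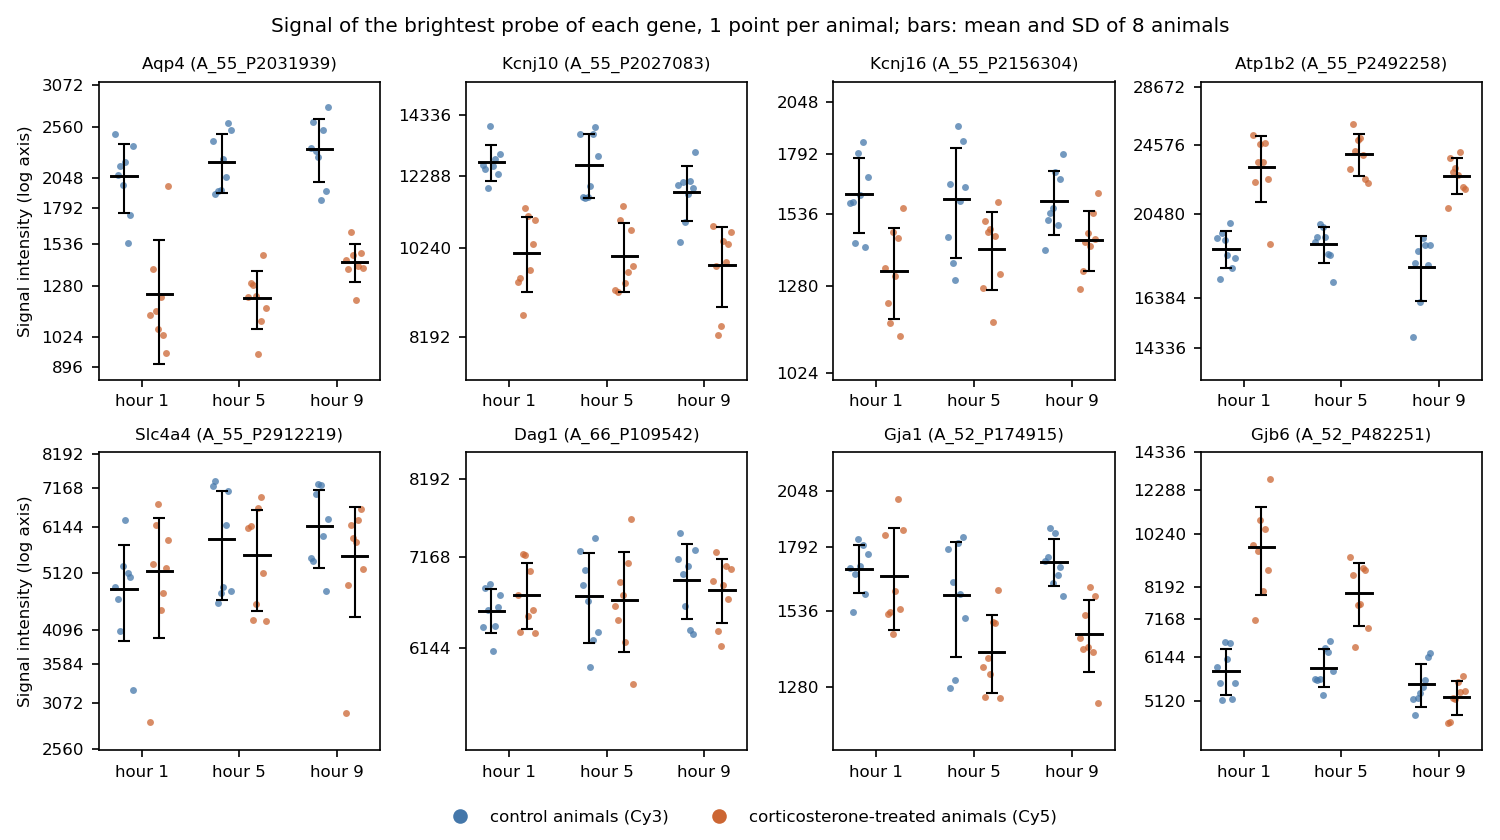
Signal intensity (log axis) of the brightest probe of each gene in each of 48 mice by hour of the light phase, with mean and SD of 8 mice. Treated mice lay below controls for *Aqp4* except for 1 mouse at 1978 during the first hour, and above controls for *Atp1b2* during the fifth and the ninth hours.

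*Aqp4* showed the largest decrease among the brightest probes of these genes. At probe A_55_P2031939 control mice had signals of 1541 to 2483 (median 2115) during the first hour, 1906 to 2605 (median 2140) during the fifth and 1860 to 2787 (median 2322) during the ninth. The signals of treated mice were 951 to 1978 (median 1135), 949 to 1460 (median 1220) and 1200 to 1615 (median 1412). Treated mice were below the paired control on 8 of 8 arrays at each hour. The groups did not overlap during the fifth and the ninth hours, and during the first hour a single treated mouse reached into the control range. This mouse was on the array of the first hour that stood apart. The log2 difference was −0.76 ± 0.09 (SE, n = 8 against 8; adjusted p = 1.20e-08, limma), −0.86 ± 0.09 (adjusted p = 8.37e-10) and −0.71 ± 0.09 (adjusted p = 2.03e-07), which corresponds to signals 1.70-fold, 1.82-fold and 1.63-fold lower than in controls. Without the 2 arrays that stood apart, the first-hour difference was −0.84.

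Between the first and the ninth hour the corticosterone effect on *Aqp4* shifted by 0.06, with a 95% interval from −0.20 to 0.31 (adjusted p = 1.00, limma). Slide means of the log2 ratio ran from −0.96 to −0.57 over the 3 slides and 3 hours, and were thus below 0 on each slide.

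Probe A_52_P625527, which the array design ties to another *Aqp4* transcript accession, followed the same direction. Its control signals were 420 to 613 during the first hour, 490 to 695 during the fifth and 471 to 627 during the ninth, whereas those of treated mice were 298 to 389, 269 to 464 and 318 to 448. Treated and control mice did not overlap at any hour. The log2 differences were −0.60, −0.67 and −0.60 (SE 0.08), with adjusted p of 7.15e-08, 6.59e-09 and 1.95e-07 in limma. On the same array, the ratio of the brightest probe differed from that of A_52_P625527 by −0.17, −0.20 and −0.11 log2 units. These differences did not pass an exact two-sided sign-flip test over 8 arrays (adjusted p = 0.152, 0.0703 and 0.273), and their 95% intervals ran from −0.37 to 0.07, −0.35 to −0.05 and −0.34 to 0.10. Without the 2 arrays that stood apart, the difference of the first hour was −0.24 over 7 arrays and passed (adjusted p = 0.0352).

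The third *Aqp4* probe above background, A_55_P2742038, behaved differently although the design gives it the same transcript accession as the brightest probe. Its signals were 80.6 to 98.4 in control and 81.4 to 106 in treated mice during the first hour, and the groups overlapped at each hour. Log2 differences were 0.07, −0.22 and −0.14 (SE 0.08, adjusted p = 0.615, 0.0433 and 0.241, limma). The fifth-hour call was lost without slide 1, 2 or 3 (adjusted p = 0.0755, 0.136 and 0.303) and without the 2 arrays that stood apart (0.102). The log2 ratio of the brightest probe was below that of A_55_P2742038 on 8 of 8 arrays at each hour, by 0.83 ± 0.22 (SD, n = 8), 0.64 ± 0.29 and 0.57 ± 0.22. These differences passed the exact sign-flip test at all 3 hours (p = 0.00781, the smallest that 8 arrays allow; adjusted p = 0.0234 over 9 tests), although a dye difference particular to one of the probes cannot be told apart from them. A_55_P2742038 was also much dimmer, with a mean intensity of 90.8 against 1743 at the brightest probe. The part of signal level in these differences was not tested. Between the first and the ninth hour, where dye differences between probes cancel, the difference between the 2 probes shifted by 0.26, which did not pass an exact permutation test (p = 0.0287; adjusted p = 0.0862 over 3 pairs).

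**Figure D2:**
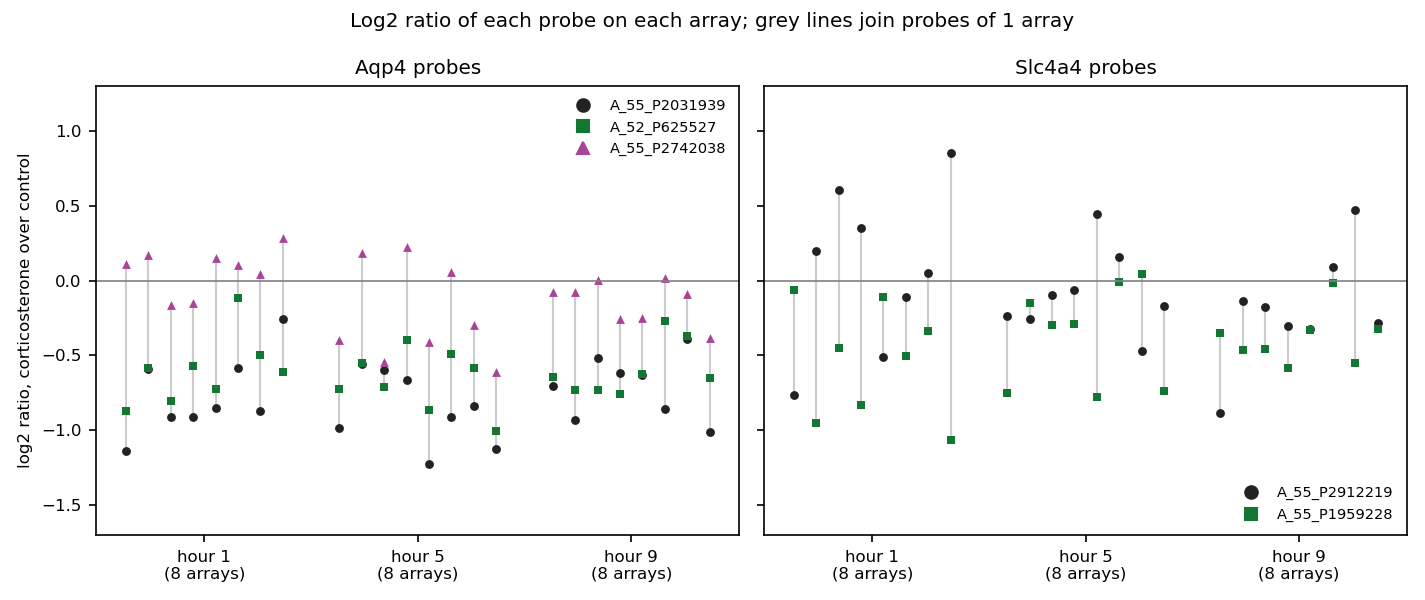
Log2 ratio (corticosterone over control) of each *Aqp4* and *Slc4a4* probe above background on each of 24 arrays. The 2 brighter *Aqp4* probes lie below 0 on each array and A_55_P2742038 lies above the brightest probe on each array, while the *Slc4a4* probes lie apart by differing amounts and in both orders.

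Among the potassium channels, *Kcnj10* was lower in treated mice at all hours. Control signals were 11922 to 13942 (median 12639) during the first hour, 11625 to 13925 (median 12459) during the fifth and 10399 to 13076 (median 11976) during the ninth. Treated mice had 8646 to 11345 (median 10026), 9175 to 11385 (median 9719) and 8225 to 10835 (median 10132). The groups did not overlap during the first and the fifth hours, they overlapped during the ninth, and treated mice were lower on 8 of 8 arrays each time. Log2 differences were −0.33, −0.33 and −0.27 (SE 0.05), with adjusted p of 4.47e-06, 5.08e-06 and 0.000266 in limma, or signals 1.26-fold, 1.26-fold and 1.20-fold lower than in controls. From the first to the ninth hour its effect shifted by 0.07 (95% interval −0.08 to 0.22).

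The sequence before the *Kcnj10* start is shown because it was the only one among 11 windows of 6 members with a match to the core hexamer of the glucocorticoid receptor element. Windows hold 250 bases before to 50 bases after an annotated start (RefSeq, GRCm38.p6), and no window was at hand for *Aqp4* and *Atp1b2*. The search on both strands was for TGTTCT, present in 19% of all 32851 windows of this length. The *Gjb6* window, which does not hold it, is shown beside it because *Gjb6* changed in the opposite direction. The windows of *Kcnj16*, *Gja1* and *Slc4a4*, which had probes lower in treated mice, and of *Dag1* did not hold the hexamer either. Its absence was thus not particular to the gene that was higher. The full receptor element was also searched for, and no window of a member held it, that of *Kcnj10* included. It was present in 0.475% of all 32851 windows. Capitals mark the hexamer, 191 bases before the start, and a match is a description of letters only. The *Kcnj10* window is chr1:172340960-172341259 on the plus strand and the *Gjb6* window is chr14:57133562-57133861 on the minus strand.
Kcnj10: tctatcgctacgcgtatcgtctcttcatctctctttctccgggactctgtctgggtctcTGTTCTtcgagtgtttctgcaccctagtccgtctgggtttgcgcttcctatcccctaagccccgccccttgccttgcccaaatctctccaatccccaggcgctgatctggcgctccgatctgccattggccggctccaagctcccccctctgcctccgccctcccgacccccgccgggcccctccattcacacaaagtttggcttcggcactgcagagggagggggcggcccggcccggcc
Gjb6: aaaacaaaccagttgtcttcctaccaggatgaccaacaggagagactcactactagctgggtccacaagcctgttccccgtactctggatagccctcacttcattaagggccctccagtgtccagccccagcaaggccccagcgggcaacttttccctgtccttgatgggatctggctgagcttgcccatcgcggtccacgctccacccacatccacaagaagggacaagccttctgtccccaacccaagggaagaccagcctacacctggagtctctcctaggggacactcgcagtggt

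*Kcnj16* was lower in treated mice during the first hour and less clearly so later. Its control signals were 1414 to 1849 (median 1598), 1299 to 1927 (median 1618) and 1401 to 1792 (median 1553), and those of treated mice were 1126 to 1561 (median 1326), 1166 to 1586 (median 1460) and 1270 to 1624 (median 1435). The groups overlapped at each hour, and treated mice were lower on 8, 6 and 7 of 8 arrays. Log2 differences were −0.29, −0.18 and −0.14 (SE 0.07, adjusted p = 0.000885, 0.0387 and 0.123, limma). The fifth-hour call did not hold without slide 1 (adjusted p = 0.140), without slide 3 (0.270) or without the 2 arrays that stood apart (0.0685). Between the first and the ninth hour the effect shifted by 0.15 (95% interval −0.04 to 0.33; adjusted p = 0.832), so a decline over the resting period was not shown.

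*Atp1b2*, the β2 subunit of the sodium-potassium pump that is typical of astrocytes, went in the opposite direction. At its brightest probe A_55_P2492258 control mice had signals of 17235 to 19961 (median 18727), 17097 to 19921 (median 19107) and 14751 to 19176 (median 18240). The corresponding treated signals were 18900 to 25220 (median 23496), 22204 to 25971 (median 24049) and 20807 to 24149 (median 22791). Treated mice were higher on 8 of 8 arrays at each hour, with no overlap during the fifth and the ninth hours and 1 treated mouse in the control range during the first, again the one on the array that stood apart. Log2 differences were 0.31, 0.34 and 0.35 (SE 0.04, adjusted p = 2.34e-07, 2.55e-08 and 3.20e-08, limma), or 23.8%, 26.9% and 27.8% above controls. The dimmer probe A_66_P117392 of the same accession, with signals of 197 to 350 over all 48 mice, gave −0.02, −0.15 and −0.11 (SE 0.08) and did not pass at any hour (adjusted p = 0.908, 0.176 and 0.368).

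*Slc4a4*, the electrogenic sodium bicarbonate cotransporter NBCe1, had 2 probes with the same transcript accession. The brightest probe A_55_P2912219 did not pass at any hour, with log2 differences of 0.08, −0.09 and −0.19 (SE 0.14, adjusted p = 0.712, 0.697 and 0.346, limma). Without the 2 arrays that stood apart, the difference of the first hour was −0.03 and that of the fifth −0.03. Its signals overlapped widely, for example 3231 to 6318 in control and 2850 to 6721 in treated mice during the first hour. Single arrays gave log2 ratios from −0.77 to 0.85 during that hour, and slide means lay on both sides of 0 at each hour.

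The other *Slc4a4* probe, A_55_P1959228, was lower in treated mice at all hours. Control signals were 1787 to 3051 (median 2499), 1632 to 2523 (median 2125) and 1540 to 3062 (median 2439), whereas treated signals were 1353 to 2105 (median 1574), 1321 to 2094 (median 1615) and 1496 to 2352 (median 1696). The ranges overlapped at each hour, but the treated mouse was lower on 8, 7 and 8 of 8 arrays. Log2 differences were −0.54, −0.37 and −0.39 (SE 0.11, adjusted p = 0.000257, 0.0110 and 0.0105, limma). The fifth-hour call was lost without slide 1 (adjusted p = 0.0647) or slide 2 (0.0745), and the ninth-hour call without slide 1 (0.268) or slide 3 (0.0590).

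The difference between the *Slc4a4* probes was tested on the same arrays. The log2 ratio of A_55_P2912219 minus that of A_55_P1959228 was 0.62 ± 0.88 (SD, n = 8), 0.28 ± 0.51 and 0.19 ± 0.43, with 95% intervals from −0.15 to 1.38, −0.14 to 0.71 and −0.14 to 0.54. None of the 3 differences passed the exact sign-flip test (adjusted p = 0.152, 0.201 and 0.273), and neither did their shift between the first and the ninth hour (−0.43; exact permutation test, adjusted p = 0.347).

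Across the 24 arrays, the log2 ratios of the *Slc4a4* probes varied in opposite directions, a relation computed after the values were seen. Pearson's r was −0.55 (permutation p = 0.00602; adjusted p = 0.0181 over 3 probe pairs) and Spearman's rho was −0.45 (permutation p = 0.0277; adjusted p = 0.0304). Within slides r was −0.70, −0.65 and −0.65 (8 arrays each), and within hours it was −0.81, −0.36 and −0.05. Without the 2 arrays farthest from the median r was −0.46. For the brightest *Aqp4* probe the corresponding r was positive, namely 0.47 with A_52_P625527 (permutation p = 0.0202; adjusted p = 0.0288) and 0.45 with A_55_P2742038 (permutation p = 0.0288; adjusted p = 0.0288). For *Aqp4*, rho was 0.51 (adjusted p = 0.0304) and 0.45 (adjusted p = 0.0304), r within slides ran from 0.11 to 0.74, r within hours ran from 0.10 to 0.69, and r without the 2 farthest arrays was 0.47 and 0.37.

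*Dag1*, whose product links the endfoot to laminin, did not differ significantly. Signals were 6116 to 6844, 5951 to 7407 and 6295 to 7475 in control mice and 6299 to 7209, 5782 to 7653 and 6168 to 7235 in treated mice, and they overlapped at each hour. Log2 differences were 0.04, −0.01 and −0.02 (SE 0.04, adjusted p = 0.562, 0.908 and 0.741, limma). The 95% intervals ran from −0.05 to 0.12, −0.09 to 0.08 and −0.11 to 0.06.

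**Figure D3:**
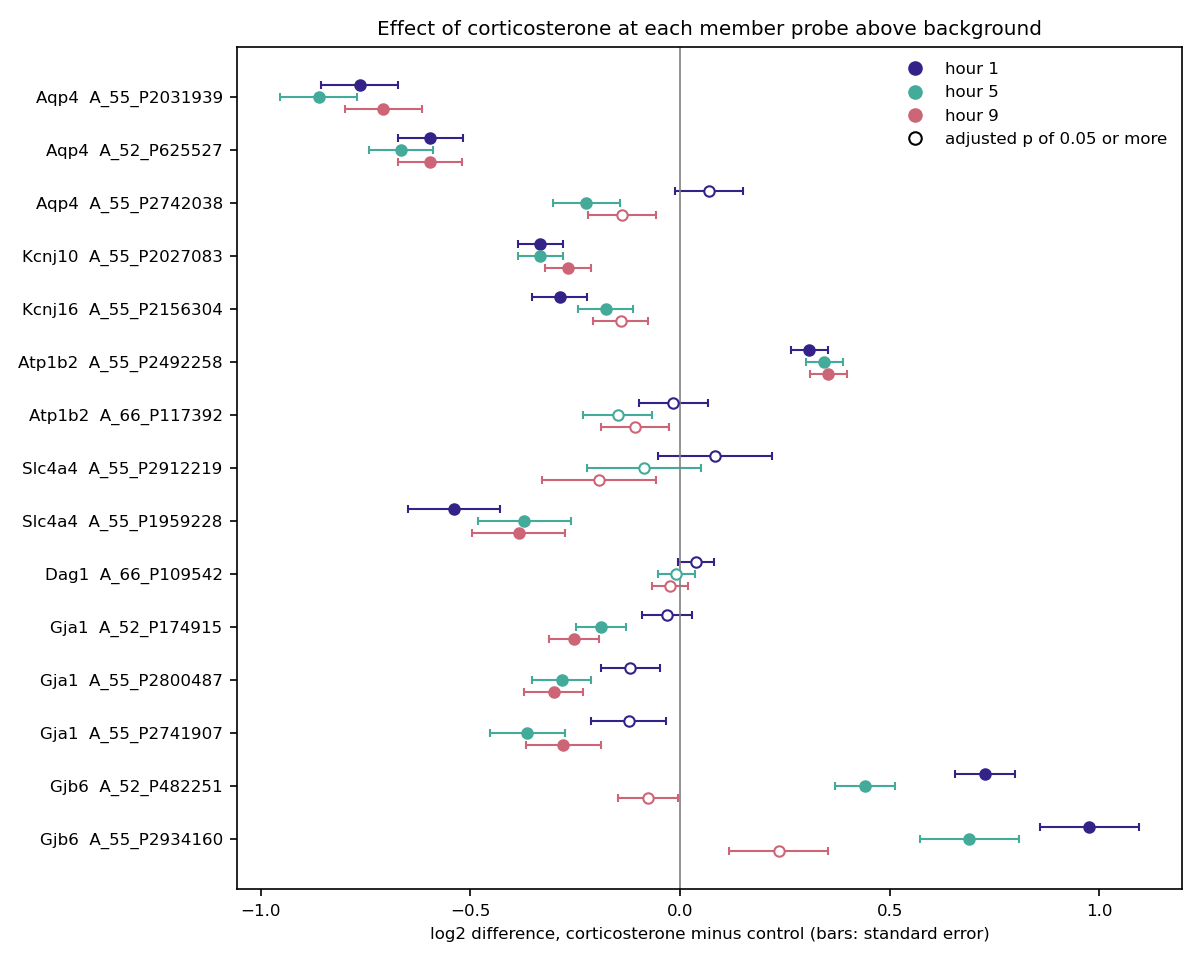
Log2 difference between corticosterone-treated and control mice with its standard error for the 15 member probes above background. Filled points passed at an adjusted p below 0.05, with *Aqp4*, *Kcnj10*, *Kcnj16*, *Slc4a4* (A_55_P1959228) and *Gja1* to the left of 0, *Atp1b2* to the right, and *Gjb6* moving from the right towards 0 by the ninth hour.

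Both connexin genes among the members had probes that passed, *Gja1* with lower and *Gjb6* with higher signals in treated mice. All 3 probes of *Gja1* were lower in treated mice during the fifth and the ninth hours and did not pass during the first. At the brightest probe A_52_P174915 control signals were 1533 to 1824 (median 1707), 1278 to 1836 (median 1624) and 1592 to 1874 (median 1719), and treated signals were 1455 to 2007 (median 1577), 1249 to 1615 (median 1359) and 1233 to 1629 (median 1426). The groups overlapped at each hour, and treated mice were lower on 5, 7 and 8 of 8 arrays. Log2 differences were −0.03, −0.19 and −0.25 (SE 0.06, adjusted p = 0.754, 0.0148 and 0.00164, limma).

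The other *Gja1* probes gave −0.12, −0.28 and −0.30 (A_55_P2800487; SE 0.07; adjusted p = 0.221, 0.00218 and 0.00159) and −0.12, −0.36 and −0.28 (A_55_P2741907; SE 0.09; adjusted p = 0.364, 0.00238 and 0.0304). A later onset was not shown, since the shift until the ninth hour did not pass at any of them (−0.22, −0.18 and −0.16; adjusted p = 0.332, 0.732 and 0.949). With slide 1 left out, and with it 4 of the 8 arrays from the ninth hour, the 3 probes did not pass at that hour (adjusted p = 0.112, 0.179 and 0.255). The fifth-hour call of A_52_P174915 was lost without any of the slides (adjusted p = 0.0792, 0.0632 and 0.0873 without slide 1, 2 and 3), and that of A_55_P2741907 without slide 1 (0.135). A_55_P2741907 also failed to pass at the ninth hour without slide 3 (0.164).

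*Gjb6* was the only member whose response to corticosterone changed significantly during the resting period. At the brightest probe A_52_P482251 control signals were 5132 to 6519 (median 5696), 5241 to 6555 (median 5693) and 4828 to 6232 (median 5356). Treated signals were 7145 to 12822 (median 9657), 6382 to 9278 (median 8125) and 4663 to 5661 (median 5237). Treated mice thus lay above all controls during the first hour, overlapped slightly with them during the fifth, and lay within or just below the control range during the ninth. They were higher than the paired control on 8, 8 and 1 of 8 arrays.

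During the first hour the log2 difference in *Gjb6* was 0.73 ± 0.07 (SE, n = 8 against 8; adjusted p = 4.20e-11, limma). It was 0.44 ± 0.07 during the fifth (adjusted p = 6.27e-06) and −0.08 ± 0.07 during the ninth (adjusted p = 0.498). This corresponds to signals 65.6% and 35.8% above controls and a difference of −5.17%. The effect fell by 0.80 ± 0.10 log2 units between the first and the ninth hours (adjusted p = 1.90e-07), where any constant dye difference cancels, and by 0.52 ± 0.10 between the fifth and the ninth (adjusted p = 0.00580). The fall from the first to the fifth hour, 0.29 ± 0.10, did not pass (adjusted p = 0.784). The call between the fifth and the ninth hours was lost without slide 1 (adjusted p = 0.597) and without slide 3 (0.138).

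The second *Gjb6* probe, A_55_P2934160, was also higher in treated mice during the first and the fifth hours, at lower signals. Control mice had 73.7 to 132, 57.2 to 127 and 78.9 to 112, and treated mice had 142 to 258, 103 to 225 and 87.1 to 144. Log2 differences were 0.98, 0.69 and 0.23 (SE 0.12, adjusted p = 1.45e-08, 3.06e-05 and 0.207, limma), and the effect fell by 0.74 ± 0.17 from the first to the ninth hour (adjusted p = 0.00537). This change was no longer significant without slide 1 (adjusted p = 0.178) or slide 3 (0.206). Its fall between the fifth and the ninth hours, 0.45 ± 0.17, did not pass (adjusted p = 0.620). During the ninth hour its treated mice were higher on 7 of 8 arrays, against 1 of 8 at the brightest probe, and the difference between these probes was not tested. Of the 16 member probes, the change of the effect from hour 1 to hour 9 passed at 2, both of *Gjb6*, against 0.827% of all probes. Between the fifth and the ninth hours it passed at 1, against 0.083%, and between the first and the fifth at 0 (2 at an unadjusted p below 0.05), against 0.0389%.

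**Figure D4:**
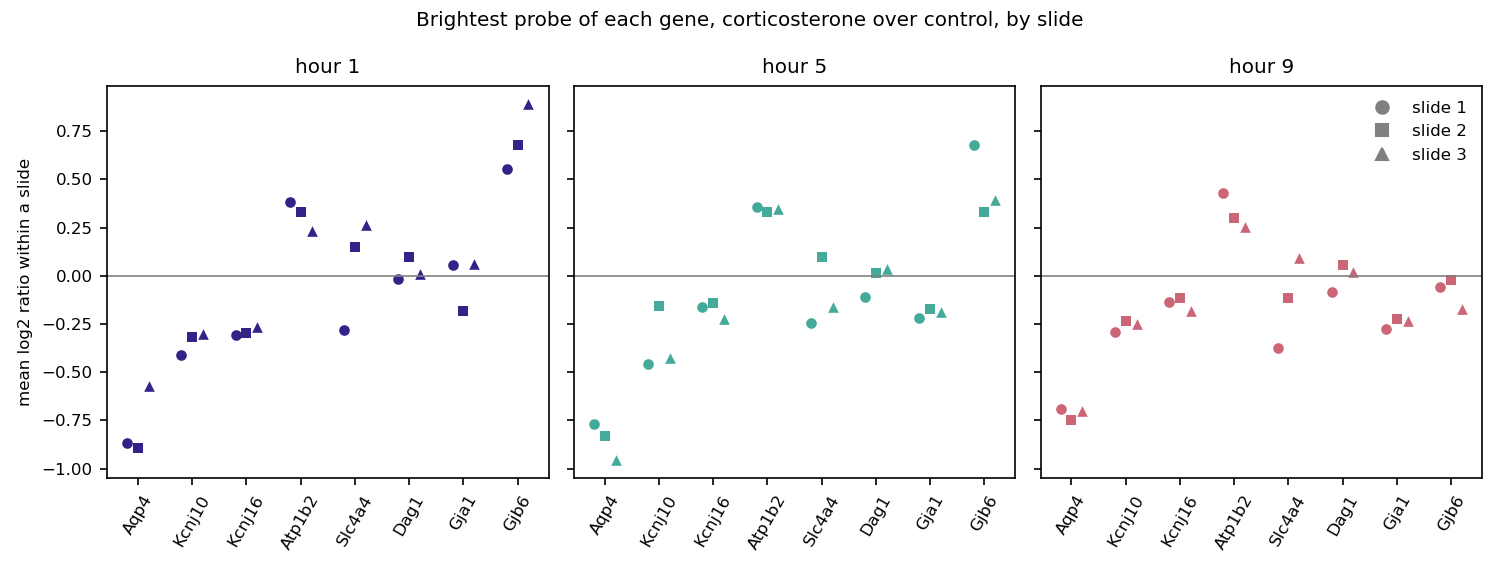
Mean log2 ratio (corticosterone over control) of the brightest probe of each gene within each slide, which holds 2 to 4 arrays of an hour. *Aqp4*, *Kcnj10* and *Kcnj16* lie below 0 and *Atp1b2* above 0 on each slide and hour, while *Gjb6* lies above 0 during the first and the fifth hours and below 0 during the ninth on each slide.

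Hours were also compared within each treatment, where both groups carry the same dye. In control mice none of the 16 probes differed between the first and the ninth hours (limma; 1 at an unadjusted p below 0.05), against 0.537% of all probes. Between the first and the fifth and between the fifth and the ninth hours 0 probes passed in control mice (0 at an unadjusted p below 0.05 in both), against 0.0053% and 0.0336%. Between the first and the ninth hours the log2 difference of *Gjb6* was −0.08 ± 0.08 in control mice (adjusted p = 0.806), whereas in treated mice it was −0.88 ± 0.08 (adjusted p = 5.43e-11). Within slides the treated difference was −0.77, −0.80 and −0.94, and the control difference was −0.15, −0.10 and 0.12. In treated mice 2 probes passed between the first and the ninth hours, both of *Gjb6* (4.02% of all probes), and 1 passed between the fifth and the ninth, the brightest *Gjb6* probe (0.666%). Between the first and the fifth hours the only probe to pass in treated mice was the brightest of *Gja1*, lower by a log2 difference of −0.26 (adjusted p = 0.0498; 0.546% of all probes).

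Other genes of the same processes were read from lists chosen with earlier results of these data known, by the brightest probe of each gene. Over all 23787 named genes, 10.3%, 9.9% and 8.37% were higher and 10.4%, 10.9% and 7.21% lower in treated mice during the first, the fifth and the ninth hours. Of 14 genes of dystrophin-dystroglycan anchoring, 2, 1 and 1 were higher and 0, 1 and 0 lower, with medians of 0.05, 0.02 and 0.01. *Sgcd*, the δ-sarcoglycan of the dystrophin complex, was higher during the first (0.36, adjusted p = 0.00133) and the fifth hours (0.31, adjusted p = 0.00767), and *Sspn*, which encodes sarcospan, was lower during the fifth (−0.25, adjusted p = 0.00324). *Dmd*, encoding dystrophin, was higher during the ninth hour (0.17, adjusted p = 0.00759) and *Lama2*, a laminin subunit, during the first (0.17, adjusted p = 0.0238).

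Of 16 genes of potassium, sodium pump and ion clearance, 4, 2 and 1 were higher and 1, 2 and 2 lower, with medians of 0.02, 0.04 and 0.05. During the first hour the two-pore potassium channel gene *Kcnk2* was higher (0.51, adjusted p = 0.000666), as was the cation channel gene *Trpv4* (0.29, adjusted p = 0.0107). The chloride channel gene *Clcn2* was higher in the first hour (0.30, adjusted p = 0.000642) as well as the fifth (0.31, adjusted p = 0.00045), and *Slc12a2*, which encodes the cotransporter NKCC1, was lower during the fifth (−0.25, adjusted p = 0.0134) and ninth hours (−0.26, adjusted p = 0.0147).

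Among 10 bicarbonate transporters and carbonic anhydrases, 2 were higher at each hour, and 2, 1 and 0 were lower (medians −0.11, −0.06 and −0.06). *Slc4a8*, a sodium-driven chloride bicarbonate exchanger, was higher at all hours (0.29, 0.35 and 0.28; highest adjusted p = 0.000139), and the anion exchanger gene *Slc4a2* was higher during the first (0.22, adjusted p = 0.00309) and the fifth hours (0.18, adjusted p = 0.0178). *Car2*, a cytosolic carbonic anhydrase, was lower during the first (−0.27, adjusted p = 0.000342) and the fifth hours (−0.18, adjusted p = 0.0143), whereas *Car14* was higher during the ninth (0.24, adjusted p = 0.0334).

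Of 13 other connexins, pannexins and aquaporins, 2, 1 and 1 were higher and 2, 1 and 0 lower, with medians of −0.08, −0.09 and 0.00. *Panx2* was higher at all hours (0.29, 0.20 and 0.23; highest adjusted p = 0.00702), *Gja4*, a vascular connexin gene, was higher during the first (0.25, adjusted p = 0.0204) and *Panx1* was lower during the first (−0.11, adjusted p = 0.0478). From hour 1 to hour 9 the effect did not change significantly at any gene of these 4 lists (limma), the lowest adjusted p being 0.108 for *Lama2* (−0.26), and it did so at 1.45% of all named genes. *Gja4* was the only gene of these lists that differed between the same hours in control mice (0.47, adjusted p = 0.00550), against 0.837% of all named genes.

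The genes whose 3 log2 differences were most like those of *Aqp4* among 22443 named probes with a mean intensity of 50 or more were *Arsg*, *Gm5089*, *Sgk2*, *Gnas* and *S100a6*, with root mean square differences of 0.12 to 0.16 log2 units. Those most like *Gjb6* were *Gm4208*, *Pdzd2*, *Ucp2*, *Endou* and *Trib1*, with 0.06 to 0.08. *Trib1*, for example, had log2 differences of 0.65, 0.34 and −0.05, and *S100a6* had −0.54, −0.81 and −0.55. Likeness was measured for single probes, over 3 differences from the same 24 arrays, and is descriptive. Other probes of these genes are not described here.

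Markers of cell types were measured beside these genes. Of 10 astrocyte markers, among which *Slc1a2* and *Slc1a3* are also in the ion clearance list, 5, 5 and 3 were higher and 1, 1 and 0 lower in treated mice. Their summed signal was 154745 to 185674 in control and 179126 to 218762 in treated mice during the first hour, 161480 to 188790 and 177053 to 198622 during the fifth, and 160322 to 177918 and 172823 to 185643 during the ninth. *Aldoc* weighed most in it, with a mean signal of 72568. *Aldh1l1* was higher by 0.57, 0.51 and 0.41 log2 units and *Gfap* gave 0.04, −0.06 and −0.06. The marker that was lower was *Sox9*, a transcription factor of astrocytes, with log2 differences of −0.52, −0.25 and −0.19 (adjusted p = 1.58e-06, 0.0144 and 0.0850, limma). A change of the effect between the first and the ninth hours, as seen for *Gjb6*, was also found at the astrocyte markers *Fgfr3* (0.43, 0.31 and −0.05; change of −0.48, adjusted p = 4.06e-05) and *Glul* (0.37, 0.25 and 0.14; change of −0.23, adjusted p = 0.0493), against 1.45% of all named genes. Of 5 endothelial markers, 1, 2 and 1 were higher and 3, 2 and 1 lower. Their sum was 8976 to 11065 in control and 6458 to 8380 in treated mice during the first hour. It was 9011 to 11430 and 7389 to 9075 during the fifth, and 8327 to 10164 and 7863 to 9072 during the ninth. In this sum *Flt1* and *Cldn5* weighed most, with mean signals of 4897 and 2914, against 641, 162 and 161 for *Slco1a4*, *Tek* and *Pecam1*. *Flt1*, which encodes a receptor for vascular endothelial growth factor, was lower on 8 of 8 arrays at each hour (−0.61, −0.47 and −0.37; adjusted p = 1.47e-08, 4.85e-06 and 0.000312, limma). The receptor tyrosine kinase gene *Tek* was lower during the first and the fifth hours (−0.30 and −0.26), while the adhesion molecule gene *Pecam1* was higher during these hours (0.29 and 0.23) and *Slco1a4*, an organic anion transporter gene, was higher during the fifth (0.22). The tight junction gene *Cldn5* moved from −0.36 during the first hour to −0.11 and 0.24 (change of 0.60, adjusted p = 2.53e-05), and it also differed between the first and the ninth hours in control mice (−0.34, adjusted p = 0.0202).

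Of 4 mural markers, *Rgs5* was lower at each hour (−0.23, −0.27 and −0.25). Of 5 microglial markers, 3, 2 and 1 were lower, among them *P2ry12* at each hour (−0.49, −0.62 and −0.37). Of 6 neuronal markers, 0, 2 and 1 were higher, and 7 oligodendrocyte markers had 2 higher at each hour and 2, 2 and 3 lower. Of 3 oligodendrocyte precursor markers *Olig2* was higher during the fifth hour (0.26), of 4 leptomeningeal markers *Slc22a6* was lower during the fifth (−0.49), and of 6 markers of hippocampal subfields *Spink8* was higher at each hour (0.61, 0.50 and 0.37). The 6 choroid plexus and 3 ependymal markers did not pass at any hour (limma), with a lowest adjusted p of 0.0959 for *Foxj1* during the fifth hour (0.25), and their summed signals were 933 to 2872 and 141 to 462 over all mice. The part of these shifts in the differences of the 8 genes was not tested.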

How the data were processed

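RNA from the hippocampus of 48 mice was hybridised as 24 pairs to two-color Agilent arrays, and the deposited scanner files give spot intensity per channel. The authors also deposited log2 ratios per array, which differed from normexp (offset 50) and loess by a median of 0.00121. Each array had 62976 spots. Intensities were background-corrected (normexp), normalised by loess within and quantiles between arrays, and averaged over spots of 1 probe. Control spots were left out, and 80 to 276 outlier spots per array were set missing. limma 3.58.1 (R 4.3.3) fitted separate channels for 6 groups with an intraspot correlation of 0.279. P-values came from intensities with an offset of 50 and were Benjamini–Hochberg adjusted over 56605 probes, whereas log2 differences, standard errors and signals came from intensities without offset. The number of arrays limits the precision. Probe pairs were compared on the same array by exact permutation in Python 3.11.15 and scipy 1.17.1. The procedure was checked on simulated data.

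The 8 genes and all lists were chosen with earlier results of these data known. All members are named by their brightest probe, up to 4 genes per list are named by their largest change among those that passed with an intensity of 50 or more, and the 5 genes most like *Aqp4* and *Gjb6* are named. Markers are named where they changed. One gene that this rule names is not reported here. Other offsets, normalizations, filters, tests, a slide term, left-out slides and the deposited ratios were tried. Leaving out the 2 arrays that stood apart was chosen after seeing the data. Probe accessions were named through RefSeq tables (GRCm38.p6).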

Additional observations from a re-analysis of the deposited data

Results flagged for a closer look

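The lowest treated mouse of the first hour had an *Atp1b2* signal of 18900, against 22295 for the next, a gap of 0.573 of the range of 8 mice on the log2 scale. It was on the array of that hour that stood apart. The lowest treated mouse of the ninth hour had an *Slc4a4* signal (A_55_P2912219) of 2944, against 4885 for the next, a gap of 0.627 of that range. These 2 were found in 48 groups of mice, and chance sets a mouse apart in about 1 in 20 groups. The effect of corticosterone on *Gjb6* differed between hours by limma's test of the difference, by −0.804 (A_52_P482251) and −0.741 (A_55_P2934160) from the first to the ninth hour and by −0.518 (A_52_P482251) from the fifth to the ninth.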

How the results depend on the processing

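Over 962 values of single probes under the alternatives, 921 kept their side of the threshold, 37 no longer passed, 4 newly passed and none that passed in either setting changed sign. Values that passed in neither setting could change sign, as *Slc4a4* A_55_P2912219 did during the first hour without the 2 arrays that stood apart. Without slide 1, the number of member probes that passed was 7 during the fifth hour and 4 during the ninth, and the change of the effect passed at 1 probe from the first to the ninth hour and at 0 from the fifth to the ninth. Without slide 3, these changes passed at 1 and 0 probes. With the scanner software's processed signals, the change from the fifth to the ninth hour passed at 0 probes. The fifth-hour call of *Kcnj16* was also lost without an offset (adjusted p = 0.0531), with Aquantile (0.0934) or no normalization (0.0807) between arrays, with processed signals (0.0790) and with the deposited log2 ratios (0.0804). That of *Aqp4* A_55_P2742038 was lost without background correction (0.0676), with Aquantile (0.0557) and with the deposited ratios (0.0570), and that of *Gja1* A_52_P174915 with processed signals (0.0941). The ninth-hour call of *Gja1* A_55_P2741907 was lost with Aquantile (0.0533) and the deposited ratios (0.0725). With processed signals, *Gjb6* A_55_P2934160 passed during the ninth hour (0.0130). The causes were not tested. Leaving out any slide left fewer arrays for the exact tests of probe pairs, of which 0 then passed, against 3 in the main analysis and 4 without the 2 arrays that stood apart. Over all alternatives, 8 to 9 probes passed during the first hour, 7 to 12 during the fifth and 4 to 10 during the ninth. The 2 mice of an array were paired through the intraspot correlation, and in the test of within-array log ratios 8, 12 and 9 probes passed. The labels give no replicate numbers by which arrays of different hours could be blocked. The dyes were not swapped, so treated against control values hold any dye difference. Dim probes such as A_55_P2742038 and A_55_P2934160 lie nearer to background than the others.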
